A study of Mus musculus with 18 samples.

Results

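Tnfaip3, Tnip1, Tnip2, Cyld, Otud7b and N4bp1 encode ubiquitin-handling proteins that restrain NF-κB. They were taken by symbol, as a list of 6 genes of known function, from a table of 55536 genes. The list was chosen with earlier results of these data known. All 6 were found and were abundant enough to be among the 16322 genes tested. RNA of immortalised mouse embryonic fibroblasts was sequenced in 18 libraries, 2 for each of 9 groups. The p65 KO line lacks p65, the NF-κB subunit encoded by Rela. The IKK2 KO line lacks IKK2 (IKK beta), the IκB kinase subunit encoded by Ikbkb, and the WT line carries neither deletion. Each line was untreated (0 min) or had been given TNF alpha, an inflammatory cytokine, at 10 ng/ml for 45 or 90 min. Each genotype was 1 line, so the effect of the deleted gene and other differences between the lines cannot be told apart. The study compared the TNF response of the lines.

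TNF binds its receptor and leads to ubiquitin chains on adaptor proteins, which recruit and activate the IκB kinase. The kinase marks IκB for destruction and frees NF-κB dimers, many of them holding p65, to enter the nucleus. The 6 proteins act against the ubiquitin step. A20, encoded by Tnfaip3, edits and binds ubiquitin chains and is itself a classic NF-κB target gene, so that it closes a negative feedback loop. ABIN-1 (Tnip1) and ABIN-2 (Tnip2) bind ubiquitin chains and A20. CYLD cuts ubiquitin chains, OTUD7B (Cezanne) is a deubiquitinase of the same domain family as A20, and N4BP1 binds ubiquitin and restrains NF-κB-driven cytokine expression.

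Library totals ran from 16708346 to 23469439 counts. Levels are given in CPM, counts scaled to a common library size with TMM factors. A change is a log2 fold change with its standard error after the ± sign, from edgeR's quasi-likelihood test on all 18 libraries. A gene was called when its p-value, adjusted by the Benjamini-Hochberg method over all 16322 genes, was under 0.05. The 2 libraries of a group are named a and b. Whether they came from separate cultures is not stated in the labels, and the p-values therefore reflect a spread between libraries that may be only technical. Rela averaged 5.68 ± 0.606 CPM in untreated p65 KO cells and 63.8 ± 0.877 CPM in untreated WT cells (SD, n = 2 each). Ikbkb averaged 43.4 ± 0.368 CPM in untreated IKK2 KO cells, 42.7 ± 0.0141 CPM in untreated p65 KO cells and 59.9 ± 0.764 CPM in untreated WT cells, so its gene-level count does not check the IKK2 KO label. Of 8 fibroblast markers 7 were detected in every group, while Thy1 was at or near 0 CPM in p65 KO and WT and at group means of 26.6 to 29.6 CPM in IKK2 KO. The 8 summed to 4550 to 11100 CPM, lower in p65 KO (group means of 4570 to 4690 CPM) than in IKK2 KO (10800 to 11000 CPM) and WT (10900 to 11100 CPM), and the part of this difference in comparisons between lines was not tested. The 4 epithelial markers summed to at most 0.299 CPM, the 4 endothelial markers to at most 1.21 CPM and the 5 myeloid markers to at most 2.23 CPM in any library.

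The promoters of 5 of the 6 genes, all but Otud7b, were matched in RefSeq (GRCm38.p6). The following 3 are shown because Tnfaip3 and Tnip1 were the genes that TNF raised most, and Cyld was nearly flat while its promoter holds the same kind of match. Each runs from 250 bases before to 50 bases after the RefSeq start, 5′ to 3′ on the gene's strand. Capitals mark matches, on either strand, to the κB consensus or to the plainer pattern GGNNTTTCC, which can overlap each other.
Tnfaip3, chr10:19015361-19015660, minus strand: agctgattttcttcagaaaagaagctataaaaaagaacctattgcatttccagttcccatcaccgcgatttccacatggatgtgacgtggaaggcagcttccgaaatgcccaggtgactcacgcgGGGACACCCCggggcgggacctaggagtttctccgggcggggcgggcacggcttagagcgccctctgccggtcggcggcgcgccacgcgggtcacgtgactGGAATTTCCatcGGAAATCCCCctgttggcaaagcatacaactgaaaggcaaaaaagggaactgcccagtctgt
Tnip1, chr11:54962891-54963190, minus strand: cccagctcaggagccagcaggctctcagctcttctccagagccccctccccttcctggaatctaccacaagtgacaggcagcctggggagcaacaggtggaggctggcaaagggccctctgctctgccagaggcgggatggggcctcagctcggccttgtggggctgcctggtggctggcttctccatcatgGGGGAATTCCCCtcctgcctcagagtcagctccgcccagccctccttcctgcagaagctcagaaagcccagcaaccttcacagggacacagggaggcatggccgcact
Cyld, chr8:88696778-88697077, plus strand: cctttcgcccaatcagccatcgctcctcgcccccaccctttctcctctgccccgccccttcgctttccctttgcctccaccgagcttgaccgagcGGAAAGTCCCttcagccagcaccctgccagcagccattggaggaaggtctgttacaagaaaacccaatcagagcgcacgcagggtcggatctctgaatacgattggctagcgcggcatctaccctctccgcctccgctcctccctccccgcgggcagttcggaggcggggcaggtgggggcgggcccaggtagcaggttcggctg

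Counted with the first base at the RefSeq start as 1, the Tnfaip3 matches lay at -125 to -116, at -24 to -16 and at -12 to -3. The last of them reads GGGGATTTCC on the opposite strand. The annotated span of Tnfaip3, which reaches 19015657, begins upstream of this RefSeq start and holds all of these matches. The second RefSeq start of Tnfaip3 had no match. Tnip1 had overlapping matches from -58 to -47 around GGGAATTCCC, which reads the same on both strands. Cyld had 1 site, at -155 to -146, that reads GGGACTTTCC on the opposite strand. The promoters of Tnip2 and N4bp1 had no match to either pattern in this window. Of 32851 RefSeq promoters of this length, 4.51% held the κB consensus and 5.82% held GGNNTTTCC. A match is a description of the letters and not evidence of binding.

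Tnfaip3 (ENSMUSG00000019850, GRCm38 chromosome 10, 19000910 to 19015657, minus strand) had the largest response of the 6 genes in every line. In p65 KO cells it stood at 12.3 and 11.7 CPM before TNF, 18.7 and 19.0 CPM at 45 min and 20.7 and 20.2 CPM at 90 min. In IKK2 KO cells it stood at 36.5 and 32.9 CPM before TNF, 146.5 and 151 CPM at 45 min and 50.7 and 51.0 CPM at 90 min. In WT cells it stood at 8.98 and 8.54 CPM before TNF, 552 and 563 CPM at 45 min and 50.2 and 46.8 CPM at 90 min. Both TNF groups lay above untreated cells without overlap in all 3 lines, and the peak was at 45 min in WT and IKK2 KO. In bulk RNA, a change in the number of responding cells and a change in RNA per cell cannot be told apart.

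Tnfaip3 rose in p65 KO by 0.65 ± 0.075 at 45 min (adjusted p = 5.71e-08) and by 0.77 ± 0.072 at 90 min (adjusted p = 1.01e-10). In IKK2 KO it rose by 2.10 ± 0.044 at 45 min (adjusted p = 8.84e-34) and by 0.55 ± 0.053 at 90 min (adjusted p = 1.75e-10). In WT it rose by 5.99 ± 0.046, or 63.75-fold, at 45 min (adjusted p = 1.83e-51) and by 2.47 ± 0.068, or 5.55-fold, at 90 min (adjusted p = 9.26e-30). By log2 change the 45 min rise in WT was number 5 from the top among all genes tested, and that in IKK2 KO number 130. The gain in level was 6.8 CPM in p65 KO, 114 CPM in IKK2 KO and 549 CPM in WT at 45 min.

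The difference between the responses was itself tested. At 45 min the Tnfaip3 response in p65 KO was smaller than in WT by a log2 difference of -5.35 ± 0.108 (adjusted p = 1.86e-34), and that in IKK2 KO was smaller than in WT by -3.90 ± 0.08 (adjusted p = 3.3e-34). At 90 min the differences from WT were -1.71 ± 0.105 for p65 KO (adjusted p = 1.49e-16) and -1.93 ± 0.09 for IKK2 KO (adjusted p = 2.38e-20). IKK2 KO responded more than p65 KO at 45 min, by 1.45 ± 0.091 (adjusted p = 4.56e-16). At 90 min that difference was -0.22 ± 0.091 and not called (adjusted p = 0.301, 95% interval -0.40 to -0.03). These comparisons share the untreated and WT libraries.

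Between 45 and 90 min Tnfaip3 RNA fell in both lines in which it had peaked. The fall was -1.55 ± 0.04, or 2.93-fold, in IKK2 KO (adjusted p = 2.77e-30) and -3.52 ± 0.034, or 11.5-fold, in WT (adjusted p = 6.14e-47), number 11 among the falls of all genes tested in WT. In p65 KO the change was 0.12 ± 0.065 and not called (adjusted p = 0.464, 95% interval -0.02 to 0.25). The p65 KO level was 3.38% of WT at 45 min and 42.1% at 90 min, and the IKK2 KO level was 26.7% of WT at 45 min and 105% at 90 min. By group mean, WT at 45 min was highest, followed by IKK2 KO at 45 min, IKK2 KO at 90 min, WT at 90 min, untreated IKK2 KO, p65 KO at 90 and 45 min, untreated p65 KO and untreated WT. In that order, IKK2 KO and WT at 90 min (50.9 ± 0.191 and 48.5 ± 2.40 CPM) stood about 1 SD of the WT pair apart, and p65 KO at 90 and 45 min were not distinguished by the test.

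**Figure D1:**
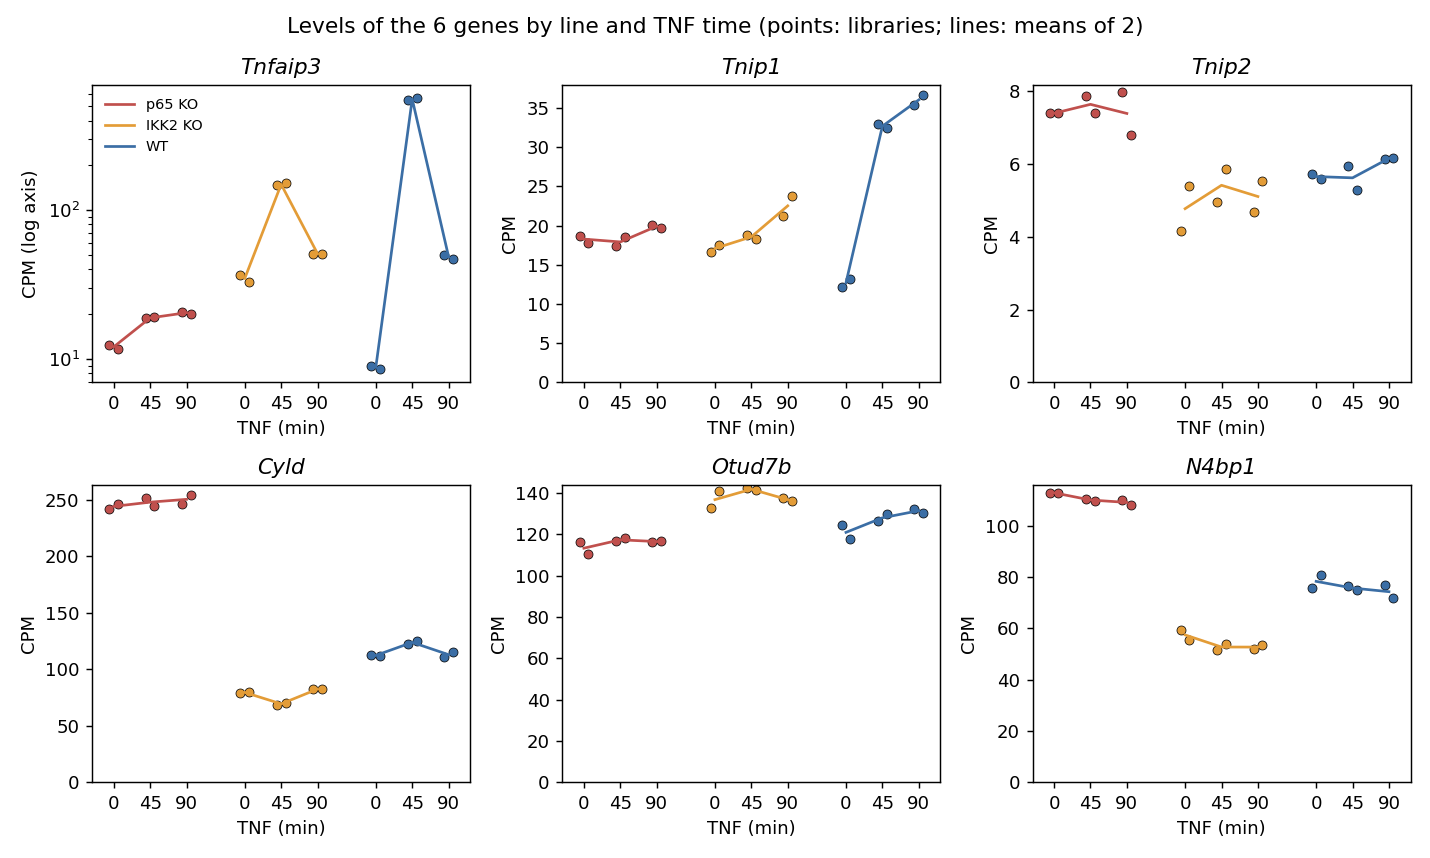
CPM of each gene in every library, by line (p65 KO, IKK2 KO, WT) and minutes of TNF; points are libraries, lines join the means of 2, and the Tnfaip3 axis is logarithmic. Tnfaip3 peaked at 45 min in IKK2 KO (146.5 and 151 CPM) and WT (552 and 563 CPM), Tnip1 climbed to 35.3 and 36.7 CPM in WT at 90 min, and Cyld and N4bp1 were set apart by line more than by time.

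Tnip1 (ENSMUSG00000020400, chromosome 11, 54910785 to 54962917, minus strand), whose product ABIN-1 binds ubiquitin chains and recruits A20, was the other gene with a large response in WT, and no fall was called by 90 min. In p65 KO cells it stood at 18.7 and 17.8 CPM before TNF, 17.3 and 18.5 CPM at 45 min and 20.1 and 19.7 CPM at 90 min. In IKK2 KO cells it stood at 16.65 and 17.5 CPM before TNF, 18.85 and 18.3 CPM at 45 min and 21.3 and 23.75 CPM at 90 min. In WT cells it stood at 12.2 and 13.2 CPM before TNF, 32.9 and 32.4 CPM at 45 min and 35.3 and 36.7 CPM at 90 min. WT cells thus had the lowest Tnip1 level of the lines before TNF and the highest after it, and its libraries did not overlap those of either knock-out line in either state. The p65 KO and IKK2 KO libraries overlapped each other at 45 min.

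Tnip1 rose in WT by 1.36 ± 0.07 at 45 min (2.56-fold, adjusted p = 6.38e-20) and by 1.497 ± 0.068 at 90 min (2.82-fold, adjusted p = 1.08e-21). In IKK2 KO it was not called at 45 min (0.12 ± 0.08, adjusted p = 0.47) and rose by 0.40 ± 0.076 at 90 min (adjusted p = 0.000319). In p65 KO it was called at neither time, with -0.02 ± 0.07 at 45 min (adjusted p = 0.953) and 0.13 ± 0.067 at 90 min (adjusted p = 0.321). The response in p65 KO was smaller than in WT by -1.38 ± 0.1 at 45 min (adjusted p = 1.66e-14) and -1.37 ± 0.097 at 90 min (adjusted p = 1.31e-14). The response in IKK2 KO was smaller than in WT by -1.24 ± 0.108 at 45 min (adjusted p = 7.1e-12) and -1.10 ± 0.104 at 90 min (adjusted p = 1.84e-10). The responses of IKK2 KO and p65 KO were not distinguished, with a difference of 0.14 ± 0.107 at 45 min (95% interval -0.07 to 0.36) and 0.27 ± 0.102 at 90 min (95% interval 0.07 to 0.48, adjusted p = 0.214 over all genes).

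From 45 to 90 min Tnip1 changed by 0.14 ± 0.058 in WT, which was not called (adjusted p = 0.107). In IKK2 KO it rose by 0.28 ± 0.073 (adjusted p = 0.00506). That call was lost without IKK2 KO 90 min library b (adjusted p = 0.162) or 45 min library b (adjusted p = 0.061), and DESeq2 did not make it (adjusted p = 0.0656). Between the same times Tnfaip3 fell in IKK2 KO and in WT.

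Tnip2 (ENSMUSG00000059866, chromosome 5, 34496087 to 34513991, minus strand), whose product ABIN-2 also binds the kinase TPL2, was the scarcest gene by CPM, with 73 to 204 counts a library. It ranged from 6.80 to 7.98 CPM over the 6 p65 KO libraries, from 4.16 to 5.87 CPM over the 6 IKK2 KO libraries and from 5.30 to 6.18 CPM over the 6 WT libraries. No TNF response was called in any line. The largest log2 change after TNF was 0.20 ± 0.153, in IKK2 KO at 45 min (adjusted p = 0.561, 95% interval -0.11 to 0.50). In WT the 45 min interval ran from -0.27 to 0.27.

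Cyld (ENSMUSG00000036712, chromosome 8, 88697028 to 88751945, plus strand), encoding the deubiquitinase CYLD, moved little after TNF and in opposite directions in 2 of the lines. In p65 KO cells it stood at 242 and 246 CPM before TNF, 252 and 244 CPM at 45 min and 247 and 254 CPM at 90 min. In IKK2 KO cells it stood at 79.3 and 79.8 CPM before TNF, 68.7 and 70.1 CPM at 45 min and 82.4 and 82.6 CPM at 90 min. In WT cells it stood at 112.6 and 112.1 CPM before TNF, 122 and 125.5 CPM at 45 min and 111 and 115 CPM at 90 min. The 45 min libraries lay below untreated ones in IKK2 KO and above them in WT, and they overlapped in p65 KO.

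At 45 min Cyld fell by 0.196 ± 0.04 on the log2 scale in IKK2 KO (adjusted p = 0.000566) and rose by 0.14 ± 0.033 in WT (adjusted p = 0.0018), while p65 KO had 0.02 ± 0.027 (adjusted p = 0.824). The response in IKK2 KO differed from that in WT by -0.34 ± 0.052 (adjusted p = 7.9e-06) and from that in p65 KO by -0.22 ± 0.048 (adjusted p = 0.00265). The p65 KO response was not called different from WT (-0.12 ± 0.042, adjusted p = 0.0836, 95% interval -0.20 to -0.03). By 90 min no line differed from its untreated cells by the test, with 0.04 ± 0.026 in p65 KO, 0.05 ± 0.039 in IKK2 KO and 0.01 ± 0.033 in WT. Between the times Cyld rose in IKK2 KO by 0.25 ± 0.039 (adjusted p = 4.14e-06) and fell in WT by 0.132 ± 0.033 (adjusted p = 0.00379). The WT call was lost without 90 min library a (adjusted p = 0.11) or 45 min library b (adjusted p = 0.0649).

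Otud7b (ENSMUSG00000038495, chromosome 3, 96104527 to 96161129, plus strand) encodes a deubiquitinase known for restraining the non-canonical NF-κB branch. It ranged from 110.6 to 118 CPM over the 6 p65 KO libraries, from 132.6 to 142.5 CPM over the 6 IKK2 KO libraries and from 117.6 to 132.5 CPM over the 6 WT libraries. Its 1 called TNF response was a rise of 0.12 ± 0.034 in WT at 90 min (adjusted p = 0.0125), where the libraries had 132.5 and 130.5 CPM, against 124 and 117.6 CPM before TNF. DESeq2 did not make that call (adjusted p = 0.148), and it was lost with total-count scaling (adjusted p = 0.0816) and without untreated library b, 90 min library a or 90 min library b of WT (adjusted p = 0.332, 0.138 and 0.0501). In the other 5 TNF comparisons its log2 changes ran from 0.001 to 0.083, and that of WT at 45 min was called without untreated library a (0.12, adjusted p = 0.049).

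N4bp1 (ENSMUSG00000031652, chromosome 8, 86808160 to 86885258, minus strand) encodes a ubiquitin-binding protein that is cut by caspase-8. It ranged from 108 to 113 CPM over the 6 p65 KO libraries, from 51.5 to 59.3 CPM over the 6 IKK2 KO libraries and from 71.9 to 80.9 CPM over the 6 WT libraries, so that the 3 lines did not overlap at any time. Its 6 TNF changes were all below 0 and none was called, from -0.13 ± 0.049 in IKK2 KO at 90 min (adjusted p = 0.168) to -0.04 ± 0.035 in p65 KO at 45 min (adjusted p = 0.74). In IKK2 KO the 95% intervals were -0.223 to -0.025 at 45 min and -0.225 to -0.027 at 90 min. Those of p65 KO and WT reached above 0 at both times.

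**Figure D2:**
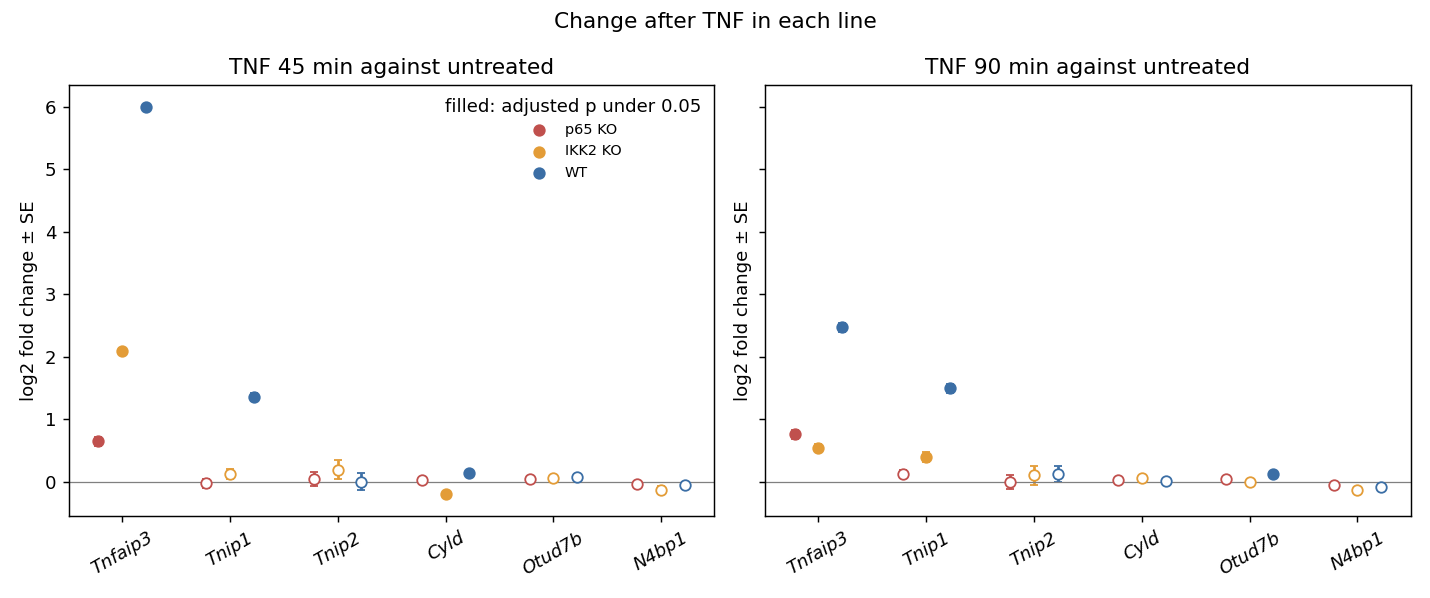
Log2 fold change of each gene after 45 min (left) and 90 min (right) of TNF against untreated cells of the same line; bars are standard errors, filled points had an adjusted p under 0.05 and open points did not. Tnfaip3 was called in all 3 lines at both times, Tnip1 in WT at both times and in IKK2 KO at 90 min, and the other 4 genes lay between -0.20 and 0.20.

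Counted over the 6 genes, 1 rose and 0 fell in p65 KO at 45 min, where 1.17% of all genes rose and 0.49% fell. At 90 min in p65 KO 1 rose and 0 fell, against 4.06% and 2.42% of all genes. In IKK2 KO 1 rose and 1 fell at 45 min, where 3.33% of all genes rose and 5.43% fell, and 2 rose and 0 fell at 90 min, against 3.36% and 1.12%. In WT 3 rose and 0 fell at 45 min, where 5.73% of all genes rose and 6.45% fell, and 3 rose and 0 fell at 90 min, against 5.81% and 3.51%. The median log2 change of the 6 genes was 0.11 at 45 min and 0.12 at 90 min in WT, and medians over all genes were 0.006 and 0. These counts describe the 6 and get no test. The genes were listed as known players of this pathway, with earlier results of these data known.

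From 45 to 90 min 0 of the 6 were called in p65 KO, 3 in IKK2 KO and 2 in WT, where 2.73%, 15.7% and 14.3% of all genes were called in either direction. In p65 KO 1 gene, Tnip1, had an unadjusted p under 0.05 (0.15 ± 0.068, 95% interval 0.01 to 0.29), and DESeq2 also called 0. Responses of p65 KO differed from WT in 2 of the 6 genes at 45 min and in 2 at 90 min, all of them smaller in p65 KO, against 7.08% and 5.39% of all genes. Responses of IKK2 KO differed from WT in 3 genes at 45 min and 2 at 90 min, again all smaller or of opposite sign in IKK2 KO, against 4.86% and 2.35% of all genes. IKK2 KO and p65 KO responses differed in 2 genes at 45 min and in 0 at 90 min, against 5.91% and 1.67% of all genes. At 90 min 2 of them, Tnfaip3 and Tnip1, had an unadjusted p under 0.05 in edgeR, and DESeq2 called 0.

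Before TNF the lines already differed. In untreated cells 6 of the 6 genes differed between p65 KO and WT, 5 between IKK2 KO and WT and 5 between IKK2 KO and p65 KO. Over all genes the shares called were 80.8%, 74.3% and 72.4%, so a difference between lines was the common case. Untreated Tnfaip3 was 3.98-fold higher in IKK2 KO than in WT (1.99 ± 0.075, adjusted p = 3.6e-26) and 1.37-fold higher in p65 KO than in WT (0.46 ± 0.09, adjusted p = 1.45e-05). It was also higher in IKK2 KO than in p65 KO, by 1.53 ± 0.069 (adjusted p = 2.53e-23). The IKK2 KO line therefore entered the time course with 32.9 to 36.5 CPM of Tnfaip3, against 8.54 to 8.98 CPM in WT.

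Of the 6 genes, Cyld had the largest log2 difference between untreated p65 KO and WT. It was 2.17-fold higher in untreated p65 KO than in WT (1.12 ± 0.029, adjusted p = 3.74e-32) and lower in untreated IKK2 KO than in WT (-0.50 ± 0.036, adjusted p = 3.23e-16), and IKK2 KO stood 3.07-fold below p65 KO (-1.62 ± 0.033, adjusted p = 2.76e-36). N4bp1 followed the same directions, higher in p65 KO than in WT by 0.52 ± 0.037 (adjusted p = 1.23e-16) and lower in IKK2 KO than in WT by -0.45 ± 0.044 (adjusted p = 3.93e-12) and than in p65 KO by -0.97 ± 0.042 (adjusted p = 3.81e-24). Tnip1 was higher than in WT in both knock-out lines, with 0.52 ± 0.076 for p65 KO (adjusted p = 7.22e-08) and 0.42 ± 0.083 for IKK2 KO (adjusted p = 1.91e-05), and the knock-outs did not differ by the test (-0.10 ± 0.076, adjusted p = 0.259, 95% interval -0.25 to 0.06). With total counts alone Tnip1 was called lower in IKK2 KO than in p65 KO (-0.30, adjusted p = 0.000523).

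Tnip2 was higher in untreated p65 KO than in WT by 0.39 ± 0.121 (adjusted p = 0.00351, and adjusted p = 0.0509 in DESeq2's Wald test). In IKK2 KO it was not called against WT (-0.25 ± 0.144, adjusted p = 0.115), but it was called lower with total counts alone (-0.43, adjusted p = 0.00767) and without IKK2 KO library b (-0.44, adjusted p = 0.0317). It was lower in IKK2 KO than in p65 KO by -0.64 ± 0.135 (adjusted p = 5.29e-05). Otud7b was lower in p65 KO than in WT by -0.09 ± 0.034 (adjusted p = 0.013), a call lost without WT library a (adjusted p = 0.275), without p65 KO library b (adjusted p = 0.309), with total-count scaling (adjusted p = 0.073) and with no filter on low counts (adjusted p = 0.135). It was higher in IKK2 KO than in WT by 0.18 ± 0.035 (adjusted p = 1.36e-05). With total counts alone that difference was -0.001 (adjusted p = 0.992). The same scaling moved the median of all genes in this comparison by -0.18. Against p65 KO, Otud7b was higher in IKK2 KO by 0.27 ± 0.035 (adjusted p = 3.56e-09). That call was lost with total counts alone (0.066, adjusted p = 0.0876).

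Levels of different genes can be compared per length, as CPM per kb of annotated exon. In untreated p65 KO cells Cyld was highest at 19.4 ± 0.212 CPM per kb, followed by Otud7b at 12.4 ± 0.424 and N4bp1 at 9.26 ± 0.0134, and Tnfaip3 was lowest at 1.66 ± 0.0601 (SD, n = 2). In untreated IKK2 KO cells Otud7b was highest at 14.9 ± 0.658 CPM per kb, Cyld had 6.33 ± 0.0276, and Tnip1 (4.83 ± 0.174), Tnfaip3 (4.8 ± 0.348) and N4bp1 (4.72 ± 0.211) lay within 1 SD of each other. In untreated WT cells Otud7b was highest at 13.2 ± 0.53 CPM per kb, Cyld had 8.93 ± 0.0255, and Tnfaip3 was lowest at 1.21 ± 0.0431. After 45 min of TNF Tnfaip3 was at 2.60 CPM per kb in p65 KO, still the lowest of the 6, at 20.6 in IKK2 KO and at 77.1 in WT, the highest of the 6 in both.

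**Figure D3:**
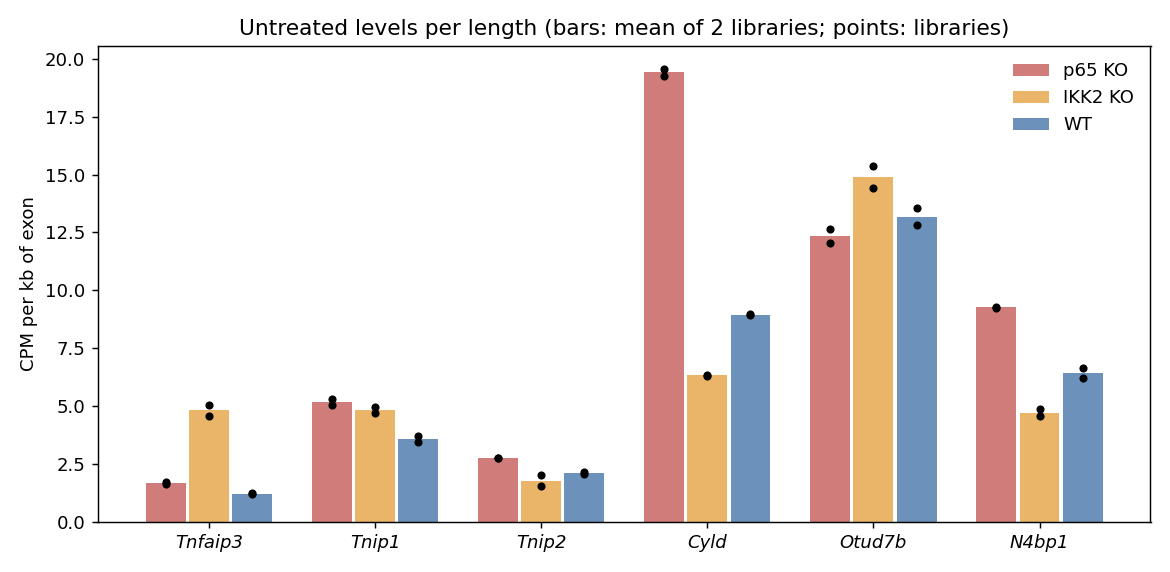
Untreated level of each gene in CPM per kb of exon, by line (p65 KO, IKK2 KO, WT); bars are means of 2 libraries and points are the libraries. Cyld reached 19.4 CPM per kb in p65 KO against 8.93 in WT, and Tnfaip3 reached 4.8 in IKK2 KO against 1.21 in WT.

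The levels of 5 of the genes, all but Otud7b, over the 18 libraries were set beside those of 11175 genes of at least 2 CPM in a group, by Pearson's r of log2 CPM. The 6 genes themselves and genes with predicted, clone-type or mitochondrial names were left out of the 11175. These values take in differences between lines as well as changes after TNF, and the part of each was not tested. The 2 libraries of a group share a line and a time, so these values describe likeness and carry no p-value. The 3 genes most like Tnfaip3 were Irf1 (r = 0.957), Nfkbia (r = 0.949) and Slc25a25 (r = 0.935). Those most like Tnip1 were Relb (r = 0.925), Uap1 (r = 0.906) and Tlr2 (r = 0.904). For Cyld they were Ism1, Mcmbp and Cd24a (r = 0.995 each), for N4bp1 Sec23ip (0.993), Map3k20 (0.992) and Cyb5b (0.992), and for Tnip2 Hap1 (0.94), Calr3 (0.935) and Gsk3a (0.934). Among the 6, Cyld and N4bp1 had r = 0.98, Otud7b stood at -0.92 with Cyld and -0.95 with N4bp1, and Tnfaip3 and Tnip1 had r = 0.66.

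Around the 6 genes, 38 further ubiquitin genes of the TNF pathway were read in 5 lists, and 36 were tested. In p65 KO 0 rose and 0 fell at 45 min by edgeR, with 5 at an unadjusted p under 0.05, where 1.17% of all genes rose and 0.49% fell. At 90 min 2 rose and 0 fell, against 4.06% and 2.42% of all genes. In IKK2 KO 0 rose and 2 fell at 45 min, against 3.33% and 5.43% of all genes, and 2 rose and 0 fell at 90 min, against 3.36% and 1.12%. In WT 4 rose and 1 fell at 45 min, against 5.73% and 6.45% of all genes, and 4 rose and 0 fell at 90 min, against 5.81% and 3.51%. DESeq2 called 0 and 0 of the 36 in p65 KO at 45 and 90 min, 2 and 1 in IKK2 KO, and 4 and 2 in WT. The median over the 36 lay between 0.001 and 0.039 in all 6 responses.

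The called rises of at least 0.5 were those of Birc2 and Birc3, of 9 ubiquitin ligases and E2 enzymes, which belong to the inhibitor of apoptosis family and add chains at the TNF receptor. Birc3 (cIAP2) stood at 0.22 ± 0.0762, 0.245 ± 0.0053 and 0.601 ± 0.0759 CPM in p65 KO at 0, 45 and 90 min, at 5.55 ± 1.02, 7.12 ± 0.626 and 11.8 ± 0.813 CPM in IKK2 KO, and at 2.17 ± 0.163, 12.7 ± 1.34 and 12.9 ± 0.219 CPM in WT (SD, n = 2). It rose by 1.08 ± 0.121 in IKK2 KO at 90 min (adjusted p = 8.26e-09) and by 2.55 ± 0.139 at 45 min and 2.58 ± 0.137 at 90 min in WT (adjusted p = 3.95e-19 and 2.93e-19). In p65 KO at 90 min its change was 1.44 ± 0.469 and not called (adjusted p = 0.0554). Birc2 (cIAP1) rose in WT by 1.08 ± 0.069 at 45 min (adjusted p = 9.94e-17) and 0.90 ± 0.07 at 90 min (adjusted p = 9.85e-14), and its 45 min responses differed from WT by -1.08 ± 0.111 for the p65 KO line (adjusted p = 5.93e-10) and by -0.78 ± 0.128 for the IKK2 KO line (adjusted p = 2.2e-05).

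The other lists moved little, and DESeq2 made none of the calls of Rnf11, Spata2, Tab3 and Zranb1 that follow (adjusted p = 0.0984 to 0.229). Of the 3 A20 cofactors, Rnf11 rose by 0.12 ± 0.034 in p65 KO at 90 min (adjusted p = 0.0185) and fell in WT at 45 min (-0.14 ± 0.042, adjusted p = 0.0168), and Tax1bp1 and Itch were called in no line. Of the 5 genes for making and cutting linear ubiquitin chains, Spata2, which links CYLD to the receptor complex, rose at 90 min by 0.25 ± 0.067 in IKK2 KO (adjusted p = 0.0211) and 0.24 ± 0.074 in WT (adjusted p = 0.0328). Of the 7 ubiquitin binders and adaptors, Tab3 rose in WT at 90 min (0.24 ± 0.069, adjusted p = 0.0195). Of 14 other deubiquitinases and relatives 12 were tested, of which Zranb1 rose in p65 KO at 90 min (0.19 ± 0.061, adjusted p = 0.0479) and Usp10 and Usp15 fell in IKK2 KO at 45 min (-0.20 ± 0.036 and -0.17 ± 0.034, adjusted p = 0.00014 and 0.000433). Traf2 (0.495 ± 0.088, adjusted p = 3.45e-05) and Ube2d3 (0.12 ± 0.026, adjusted p = 0.00149) made up the 4 rises in WT at 45 min with the 2 Birc genes. Rnf11, Spata2, Tab3, Zranb1, Usp10, Usp15, Traf2 and Ube2d3 were named after their values were seen. Tnip3, the third ABIN gene, was too scarce to be tested, at 0.197 ± 0.0439, 0.13 ± 0.0435 and 0.24 ± 0.00771 CPM in p65 KO at 0, 45 and 90 min, 0 counts in all IKK2 KO libraries, and 0.0507 ± 0.0717, 0.319 ± 0.0392 and 0.279 ± 0.0249 CPM in WT.

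**Figure D4:**
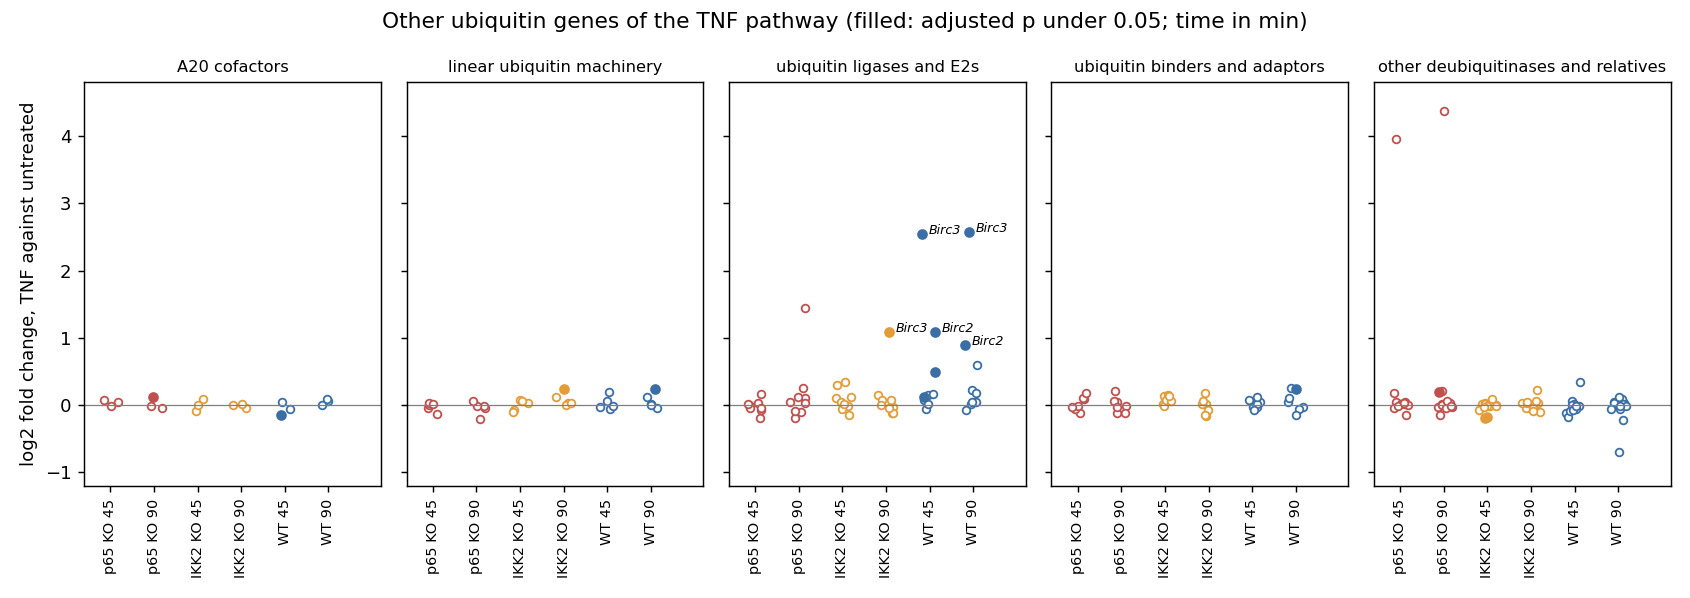
Log2 fold change after TNF of 36 further ubiquitin genes, by list, line and time; filled points had an adjusted p under 0.05. Birc3 (2.55 and 2.58 in WT) and Birc2 stand above the rest of the called genes. The open points at 3.96 and 4.37 in p65 KO are Usp18, which had 0 counts in untreated p65 KO cells. Its fitted change therefore depends on the prior count of edgeR's fit, which was not the 2 used for log2 CPM.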

How the data were processed

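RNA of 18 libraries was sequenced as paired ends of 76 bases. The submitters' processing notes name FastQC 0.11.8, Trimmomatic, HISAT2, featureCounts, Subread 1.6.2, edgeR 3.26.4 and the build GRCm38, without the role of each. The values the authors deposited are estimated counts per gene, not normalized, as their differing library totals show. Of the non-zero values 31.8% were fractional, and all were rounded to whole counts here. No strand setting, annotation release or treatment of multi-mapped reads is stated in the sources used here. The exons of the 6 genes overlap no other annotated gene. All 55536 gene IDs matched GENCODE M21, which gave positions and exon lengths.

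Genes were kept with filterByExpr (16322 genes, 0.0601% of counts lost), scaled by TMM and tested with edgeR 4.0.16 in R 4.3.3 (robust quasi-likelihood F-test, 1 coefficient per group, 9 residual degrees of freedom, 18 contrasts, Benjamini-Hochberg threshold 0.05). Standard errors were derived from the F statistics, and 95% intervals use them. Log2 CPM had a prior count of 2. Alternatives were DESeq2 1.42.0, RLE, upper-quartile and total-count scaling, no filter on low counts, unrounded values, only the libraries compared, and each library left out. The test was checked on simulated data. Replicate pairs differed beyond counting error (chi-square per degree of freedom 1.13 to 4.27), so none was merged. Columns name line and time but no replicate number, so libraries are called a and b.

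The 6 genes and the lists were chosen with earlier results of these data known. All 6 were tested in every comparison. Each of their calls is given, while some of their uncalled changes are not. List genes were named where called with an absolute log2 change of at least 0.5 in a TNF response. Other called list genes are marked as chosen after their values were seen. Tax1bp1, Itch and Usp18 are named as not called in TNF responses, and Tnip3 as not tested. The 3 most correlated genes were named per member, and those of Otud7b are not reported here. Protein sequences were not used here.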

Additional observations from a re-analysis of the deposited data

Results flagged for a closer look

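The following 11 differences between the responses of lines passed the test of the difference itself, each given as a log2 difference with its standard error, by edgeR. For Tnfaip3 they were -5.345 ± 0.108 at 45 min and -1.708 ± 0.105 at 90 min for p65 KO minus WT, -3.895 ± 0.08 at 45 min and -1.925 ± 0.09 at 90 min for IKK2 KO minus WT, and 1.45 ± 0.091 at 45 min for IKK2 KO minus p65 KO. For Tnip1 they were -1.381 ± 0.1 at 45 min and -1.372 ± 0.097 at 90 min for p65 KO minus WT, and -1.238 ± 0.108 at 45 min and -1.098 ± 0.104 at 90 min for IKK2 KO minus WT. For Cyld they were -0.336 ± 0.052 for IKK2 KO minus WT and -0.217 ± 0.048 for IKK2 KO minus p65 KO, both at 45 min. Untreated Tnfaip3 differed as well, at 32.9 to 36.5 CPM in IKK2 KO and 11.7 to 12.3 CPM in p65 KO, against 8.54 to 8.98 CPM in WT, and the part of this starting level in the log2 differences was not tested. Groups of 2 libraries are too small for a check of single outlying libraries.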

How the results depend on the processing

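No paired analysis was possible because the columns carry no replicate numbers. Over 1331 alternative values of the 6 genes' changes, 1310 kept their side of the threshold without a reversal of a call. Of the rest, 16 lost a call with its sign kept, 4 gained one and 1 lost its call with a change of sign. The last was Otud7b in untreated IKK2 KO against WT, at -0.001 (adjusted p = 0.992) with total counts alone. Of the 1310, 61 were called in neither fit and changed sign, none of them beyond 0.172. DESeq2 on the list genes, an alternative chosen after seeing the data, lost 6 calls, those of Rnf11 (p65 KO at 90 min, WT at 45 min), Zranb1 (p65 KO at 90 min), Spata2 (IKK2 KO and WT at 90 min) and Tab3 (WT at 90 min). All calls of Tnfaip3 in TNF responses, and its and Tnip1's differences of responses from WT, held under every alternative run. When single libraries were left out, the number of the 6 genes called moved in WT at 45 min, at 90 min and between the times. It also moved in IKK2 KO between the times and for each untreated knock-out line against WT. DESeq2 called 2 of the 6 in WT at 90 min (3 by edgeR) and 2 in IKK2 KO between the times (3 by edgeR). For untreated p65 KO against WT it called 5 (6 by edgeR). Total-count scaling moved the median of all genes by -0.18 for untreated IKK2 KO against WT and by -0.20 against p65 KO. It moved levels per kb by at most 10.2%, but 41 of 54 of them by over 1 SD of their 2 libraries.

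Over all genes, DESeq2 called fewer than edgeR: 155 and 435 in p65 KO at 45 and 90 min (271 and 1058 by edgeR), 811 and 408 in IKK2 KO (1430 and 732), 1114 and 844 in WT (1988 and 1521), and from 45 to 90 min 174, 1536 and 1289 in p65 KO, IKK2 KO and WT (445, 2566 and 2334). Differences of responses at 45 and 90 min gave 691 and 489 for p65 KO minus WT (1156 and 880), 467 and 210 for IKK2 KO minus WT (794 and 384) and 524 and 142 for IKK2 KO minus p65 KO (965 and 273). Leaving out single libraries took the p65 KO counts to as few as 97 at 45 min (without untreated library b), 452 at 90 min (without the same library) and 164 between the times (without 45 min library b). The lowest such counts in IKK2 KO were 901 at 45 min (without untreated library a) and 391 at 90 min (without 90 min library a), and for differences of responses 581 (p65 KO minus WT, 90 min), 615 and 126 (IKK2 KO minus p65 KO, 45 and 90 min), all without p65 KO untreated library b. With only the compared libraries 533 genes were called in p65 KO at 45 min. Total counts alone gave 487 and 1646 in p65 KO, of which 90.1% and 88.1% rose (70.5% and 62.7% with TMM), and the share that rose at 90 min was 62.4% in IKK2 KO and 45.5% in WT (75% and 62.3% with TMM). Tnip2, with 73 to 204 counts a library, is the gene whose precision depth limits most.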
